A study of Mus musculus with 12 samples.

Results

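Small RNA host genes are long non-coding RNA (lncRNA) genes whose transcripts contain small nucleolar RNAs (snoRNAs) or microRNAs. In the count table of this series, 35 of 61210 rows met the rule: type lncRNA or noncoding, and a name of the form Snhg plus a number, a name beginning with Mir and ending in hg, or one of Gas5, Epb41l4aos, Dleu2, Neat1 and Malat1. These rows carried 29 gene names, since Snhg14 alone took 7 rows. By name, 22 rows were classed as snoRNA hosts (Snhg names, Gas5 and Epb41l4aos) and 11 as microRNA hosts (Mir names and Dleu2). Snhg10 and Snhg20, in the former class, hold a small Cajal body RNA and a microRNA gene but no annotated snoRNA. Snhg4 holds microRNA genes beside its snoRNAs. Malat1 and Neat1 made up the remaining 2 rows; no annotated snoRNA or microRNA lies inside either, and both are kept apart below as nuclear architectural RNAs. A further row, Snhg11, matched by name but was typed as protein coding and so fell outside the rule.

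Total RNA of interscapular brown adipose tissue (iBAT), the heat-producing fat depot between the shoulder blades, was sequenced in 12 libraries from C57BL/6N mice aged 20 weeks. All were wild type. The NCD groups stayed on chow, and the HFD groups ate a high-fat diet for 12 weeks from the age of 8 weeks. On each diet, 3 libraries came from housing at 22 °C and 3 from exposure to 4 °C for 24 h. The labels number the replicates without saying whether each is a separate animal, so p-values measure the spread between these libraries.

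In snoRNA hosts, the spliced exons are often discarded and the introns carry the product. Box C/D snoRNAs guide the methylation of ribosomal RNA, box H/ACA snoRNAs guide its pseudouridylation, and small Cajal body RNAs (scaRNAs) do the same for spliceosomal RNA. In microRNA hosts, hairpins are cut out of the primary transcript in the nucleus and trimmed to mature microRNAs, which recognise messages mainly through a seed near their 5′ end. The values below are of the host gene rows, not of separate rows for the small RNAs. In Gas5, Snhg1, Snhg4, Snhg12 and Snhg20, among others, small RNAs lie within annotated exons, and Snora73a touches an exon of Snhg3. Reads of such small RNAs could have been counted in the host rows, and their part in the values was not tested.

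The annotation (GENCODE M21, genome build GRCm38) placed 248 snoRNA or scaRNA genes inside the members, 208 of them in Snhg14, and 27 microRNA genes. Sequences were read for 245 of the former from the GENCODE transcripts and for 20 microRNA genes in 8 hosts from RefSeq (GRCm38.p6). A C box (TGATGA within the first 25 bases) together with a D box (CTGA within the last 25) was found in 189 of the 208 in Snhg14, 8 of 10 in Gas5 and 6 of 8 in Snhg1. An ACA box (ACA within the last 6 bases) was found in both RNAs of Snhg3 and in the scaRNA of Snhg20. The boxes are in capitals in the following sequences, which belong to the hosts that the results turn on. Snord123 lies in the intron of Snhg18 at chr15:32241853-32241923 on the minus strand. The scaRNA gene Gm26083 lies in Snhg20 at chr11:117077243-117077435 on the plus strand. Snora73a (chr4:132352775-132352979) and Snora73b (chr4:132352322-132352526) lie in Snhg3 on the minus strand. They matched at 198 of their 205 bases. Snord47 lies in Gas5 at chr1:161038082-161038158 on the plus strand.
Snord123: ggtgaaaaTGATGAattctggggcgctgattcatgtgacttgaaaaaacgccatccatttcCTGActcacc
Gm26083: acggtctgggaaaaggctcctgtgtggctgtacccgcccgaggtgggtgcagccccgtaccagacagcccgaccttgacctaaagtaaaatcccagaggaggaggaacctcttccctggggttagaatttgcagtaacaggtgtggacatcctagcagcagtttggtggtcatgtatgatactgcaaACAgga
Snora73a: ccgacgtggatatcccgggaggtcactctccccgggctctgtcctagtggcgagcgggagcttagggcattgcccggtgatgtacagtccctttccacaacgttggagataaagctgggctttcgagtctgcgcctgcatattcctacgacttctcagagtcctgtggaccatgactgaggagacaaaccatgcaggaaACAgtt
Snora73b: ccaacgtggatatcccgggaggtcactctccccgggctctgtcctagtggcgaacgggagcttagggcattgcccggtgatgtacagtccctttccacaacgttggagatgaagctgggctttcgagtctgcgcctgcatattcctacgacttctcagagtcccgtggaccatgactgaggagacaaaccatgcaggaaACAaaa
Snord47: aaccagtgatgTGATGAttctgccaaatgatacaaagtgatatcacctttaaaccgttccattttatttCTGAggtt

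For the microRNA hosts, the mature strands below were chosen because their hosts gave the clearest differences between groups or the highest levels. The seed, bases 2 to 8, is in capitals. Dleu2 contains miR-15a and miR-16 on chromosome 14, which share the seed AGCAGCA. In Mir17hg on the same chromosome, miR-17 and miR-20a share AAAGUGC, and miR-19a and miR-19b share GUGCAAA. The 3 microRNAs of Mir99ahg on chromosome 16 have 3 different seeds, and Mir22hg on chromosome 11 holds miR-22 alone.
mmu-miR-15a-5p (Dleu2): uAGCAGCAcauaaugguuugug
mmu-miR-16-5p (Dleu2): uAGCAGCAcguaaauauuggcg
mmu-miR-17-5p (Mir17hg): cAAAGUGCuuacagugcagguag
mmu-miR-20a-5p (Mir17hg): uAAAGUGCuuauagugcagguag
mmu-miR-19a-3p (Mir17hg): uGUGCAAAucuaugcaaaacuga
mmu-miR-19b-3p (Mir17hg): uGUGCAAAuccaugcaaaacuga
mmu-miR-99a-5p (Mir99ahg): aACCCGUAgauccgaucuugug
mmu-let-7c-5p (Mir99ahg): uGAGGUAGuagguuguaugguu
mmu-miR-125b-5p (Mir99ahg): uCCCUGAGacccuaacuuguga
mmu-miR-22-3p (Mir22hg): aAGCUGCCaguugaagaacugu

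Libraries held between 15136861 and 46740702 counts. Replicates 1 and 2 of each group form batch 1 in the labels and replicate 3 forms batch 2, whose libraries were the deeper ones (34067515 counts or more). Brown adipocyte markers were counted in every library (12 of 12 genes), and their sum rose from between 13400 and 16300 CPM (counts per 1e+06 normalized library counts) on NCD at 22 °C to between 30400 and 34100 at 4 °C. Ucp1, 1 of these markers, had means of 4200 and 16400 CPM there, and 5 of the 12 passed as higher. On HFD the sums were 14000 to 17600 CPM at 22 °C and 21900 to 27100 at 4 °C, with 3 genes higher and 1 lower. Skeletal muscle markers (16 genes, all counted in every library) summed to between 1420 and 66100 CPM. The 3 libraries richest in them were HFD 22 °C replicate 3, NCD 22 °C replicate 2 and NCD 4 °C replicate 2.

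Of the 35 rows, 25 (23 gene names) had counts high enough to be tested: 17 snoRNA host rows, 6 microRNA host rows, Malat1 and Neat1. The 10 others included Mir142hg (at most 11 counts in a library), Mir155hg (at most 6), Snhg9 (at most 12) and 4 of the Snhg14 rows. The hosts of the neural microRNAs miR-124 and miR-9 were at the limit of detection. Mir124-2hg had 0 counts in every library, and Mir124a-1hg and Mir9-3hg had at most 1; a count of 0 allows up to 3 counts in that library, counting error only.

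The detected hosts spanned a wide range of abundance. Per kilobase of annotated exon, Malat1, a component of nuclear speckles, had the highest mean level, 610 CPM per kb (SD 129, n = 12 libraries). Snhg3 followed with 135 (SD 53.3), Neat1, the scaffold of paraspeckles, with 58.7 (SD 38.0), Snhg4 with 33.3 (SD 6.83) and Mir22hg with 16.7 (SD 2.39). Snhg1 (9.93, SD 1.45) and Snhg20 (9.15, SD 2.41) came next, followed by Gas5 (7.33, SD 1.17). Snhg20 differed from each of its neighbours in this order by less than its SD. At the low end of the tested genes, Mir99ahg stood at 0.473 CPM per kb (SD 0.176) and Mir17hg at 0.739 (SD 0.244). Exon lengths include isoforms that retain introns, which lowers the per-kb level of hosts such as Gas5 and Snhg1, and no per-kb value was set for single Snhg14 rows.

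**Figure D1:**
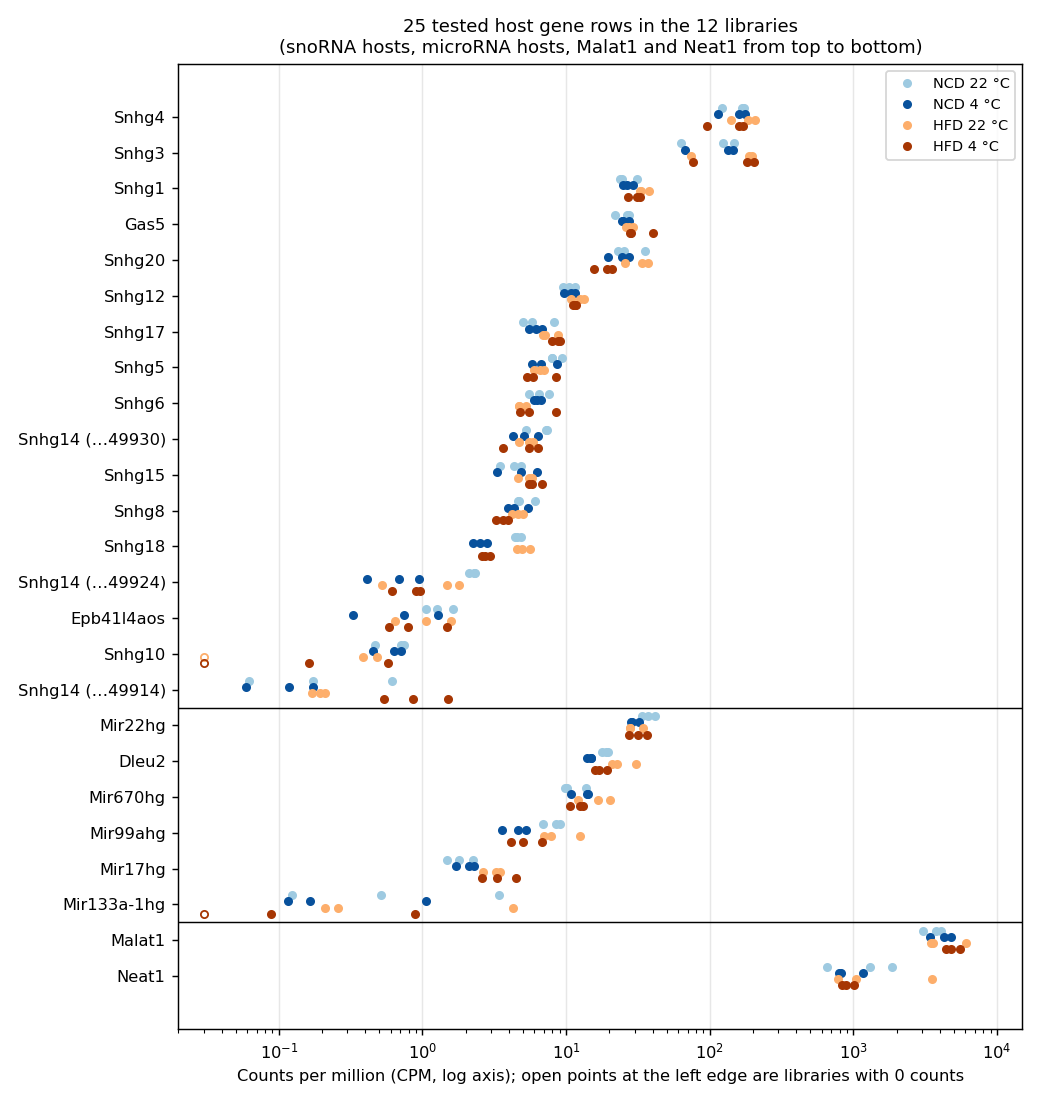
CPM on a log axis for the 25 tested rows, 1 point per library and 1 colour per group, with snoRNA hosts above, microRNA hosts in the middle and Malat1 and Neat1 below. Snhg18 separates by temperature on both diets (at least 4.42 CPM at 22 °C, at most 2.97 at 4 °C), while Snhg3 and Snhg4 spread widely within every group.

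Snhg18 was the host gene with the most regular response to cold. It is a 2-exon lncRNA gene on chr15:32240565-32244662 (minus strand, ENSMUSG00000096956.2) and holds Snord123 in its intron. On NCD at 22 °C, the 3 libraries had 4.54, 4.42 and 4.87 CPM, against 2.81, 2.53 and 2.25 at 4 °C. On HFD they had 4.90, 5.59 and 4.52 CPM at 22 °C and 2.97, 2.73 and 2.59 at 4 °C. All 6 warm libraries were thus above all 6 cold ones. Snhg18 fell by 0.87 (log2) on NCD (SE 0.17, adjusted p = 0.0117) and by 0.86 on HFD (SE 0.17, adjusted p = 0.00876) in edgeR's quasi-likelihood F-test, Benjamini-Hochberg adjusted. The responses on the 2 diets differed by 0.02 (95% interval -0.50 to 0.53), and diet itself gave 0.11 at 22 °C (interval -0.25 to 0.48) and 0.13 at 4 °C (interval -0.24 to 0.50). Within batch 1 the cold difference was -0.73 on NCD and -0.86 on HFD, and within batch 2 it was -1.09 and -0.79. The call was lost on both diets without a filter on counts (adjusted p = 0.0637 and 0.0585) and in batch 1 alone (0.113 and 0.0678), on NCD without NCD 22 °C replicate 3 (0.0528) or without the 3 libraries richest in muscle markers (0.1), and on HFD when only its 6 libraries were fitted (0.0589), all from edgeR, with Snhg18 differences between -0.93 and -0.745 (the range over alternatives other than single libraries left out). In bulk tissue, fewer cells of a type and less RNA per cell cannot be told apart. The summed fibroblast markers moved the same way on NCD, with 6 of 12 genes lower in the cold and sums of 1550 to 2340 CPM at 22 °C against 774 to 883 at 4 °C. On HFD the sums overlapped, 859 to 1230 against 632 to 1150 CPM, with 1 gene lower and 1 higher. The summed white adipocyte markers (7 of 8 genes in the table, 5 counted in every library) were lower in the cold without overlap on both diets, at 176 to 313 against 50.4 to 147 CPM on NCD and 114 to 313 against 52 to 96 CPM on HFD. Of the 5 tested, 0 passed on NCD, and 1 was higher and 1 lower on HFD. The summed immune markers were lower in the cold on NCD (187 to 206 against 109 to 138 CPM) and overlapped on HFD. The part of these cells in the fall of Snhg18 was not tested.

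Snhg18 starts 148 bases from the coding gene Sema5a, which is transcribed in the opposite direction and encodes a semaphorin, a guidance protein of the cell surface. Both starts lie in the window of chr15:32244613-32244912, printed here in the direction of Snhg18 because both genes that start in it had lower values in the cold. In it Sema5a starts at base 103 and Snhg18 at base 251.
Snhg18 window: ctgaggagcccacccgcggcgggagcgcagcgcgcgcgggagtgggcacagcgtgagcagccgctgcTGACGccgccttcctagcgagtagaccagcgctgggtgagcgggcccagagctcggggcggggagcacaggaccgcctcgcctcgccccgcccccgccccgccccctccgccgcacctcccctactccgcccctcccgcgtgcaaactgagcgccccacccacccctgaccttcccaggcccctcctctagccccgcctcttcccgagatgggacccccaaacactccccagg
The capitals mark TGACG, the half-site of the cAMP response element, searched on both strands (as TGACG or CGTCA). It occurred once in the window. Among all 32851 RefSeq promoter windows of 300 bases, 20.8% held it, and 9 of 27 windows of the members did (21 of 29 names had a window). A match of these letters does not show binding.

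Sema5a had 9.02, 5.41 and 5.85 CPM on NCD at 22 °C and 4.19, 3.94 and 1.70 at 4 °C. On HFD it had 8.44, 5.65 and 9.18 CPM at 22 °C and 4.28, 3.08 and 2.75 at 4 °C. The warm and cold libraries of Sema5a did not overlap on either diet. Sema5a fell by 1.21 on HFD (SE 0.35, adjusted p = 0.0456, edgeR's quasi-likelihood F-test, Benjamini-Hochberg adjusted), a call kept only without NCD 4 °C replicate 3 when the 12 libraries were left out singly (adjusted p up to 0.141 in the other fits). On NCD its log2 difference was -1.06 (SE 0.35), and its adjusted p of 0.0933 from the same test missed the threshold. With replicate numbers paired within diet, the NCD difference was -1.13 and passed (adjusted p = 0.0367), as it did in DESeq2 (-1.08, adjusted p = 0.0283). The HFD call of Sema5a was lost in batch 1 alone (adjusted p = 0.155), with only the 6 libraries compared (0.0502) and without the 3 libraries richest in muscle markers (0.154), in edgeR.

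Of 4 tested pairs of a member and a coding gene that start within 1000 bases of each other on opposite strands, the others were Snhg1 with Slc3a2, Gas5 with Zbtb37 and Snhg10 with Glrx5. The start of Snhg1 is 106 bases from that of Slc3a2, which encodes the heavy chain of amino acid transporters and is transcribed the other way. The window of chr19:8723237-8723536, printed in the direction of Snhg1, holds the Slc3a2 start at base 133 and the Snhg1 start at base 239. TGACG was not found in it on either strand.
Snhg1 window: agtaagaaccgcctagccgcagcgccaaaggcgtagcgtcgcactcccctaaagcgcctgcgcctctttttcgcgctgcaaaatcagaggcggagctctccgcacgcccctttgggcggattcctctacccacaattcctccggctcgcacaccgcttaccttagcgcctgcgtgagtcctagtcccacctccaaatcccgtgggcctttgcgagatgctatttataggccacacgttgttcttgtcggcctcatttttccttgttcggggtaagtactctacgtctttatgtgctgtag
Slc3a2 had 47.2, 36.7 and 36.5 CPM on NCD at 22 °C and 170, 175 and 99.1 at 4 °C. On HFD it had 48.2, 41.2 and 46.7 CPM at 22 °C and 174, 116 and 90.8 at 4 °C. Its cold libraries were above all warm ones on both diets, and it rose by 1.88 on NCD (SE 0.26, adjusted p = 0.00207) and by 1.48 on HFD (SE 0.26, adjusted p = 0.00498) in edgeR's quasi-likelihood F-test, Benjamini-Hochberg adjusted. Without the 3 libraries richest in muscle markers, Slc3a2 missed the threshold on NCD (1.68, adjusted p = 0.0606, edgeR). Snhg1 had 23.8, 24.3 and 30.9 CPM on NCD at 22 °C and 29.2, 26.5 and 24.7 at 4 °C. On HFD it had 33.3, 32.9 and 37.7 CPM at 22 °C and 30.9, 32.6 and 27.0 at 4 °C. Its cold and warm values overlapped on NCD and not on HFD. Its cold difference was 0.02 on NCD (95% interval -0.26 to 0.30) and -0.20 on HFD (interval -0.48 to 0.08), intervals that lie below the rise of Slc3a2. The difference between the 2 genes was not itself tested.

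Zbtb37, a zinc finger gene whose start is 427 bases from that of Gas5 and which overlaps it, had cold differences of -0.37 on NCD (95% interval -0.76 to 0.03) and -0.33 on HFD (interval -0.72 to 0.06). Glrx5, a mitochondrial glutaredoxin gene that starts 409 bases from Snhg10, had 0.49 on NCD (interval 0.04 to 0.94, adjusted p = 0.182) and 0.33 on HFD (interval -0.12 to 0.78, adjusted p = 0.328) in edgeR's quasi-likelihood F-test, Benjamini-Hochberg adjusted. Neither passed in any contrast, and neither did Gas5 or Snhg10.

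**Figure D2:**
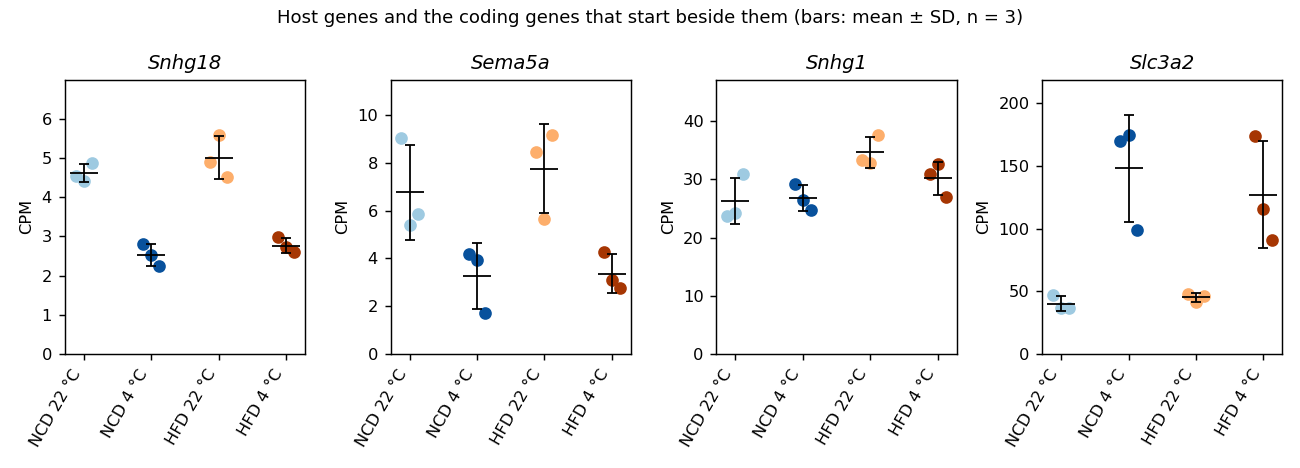
CPM of Snhg18, Sema5a, Snhg1 and Slc3a2 by group, 1 point per library, with mean and SD (n = 3) in black. Snhg18 and Sema5a are both lower in the cold on either diet, whereas Slc3a2 is higher in the cold beside a Snhg1 that stays between 23.8 and 37.7 CPM.

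Among all 25 tested members, 2 passed for cold on NCD (adjusted p under 0.05 and absolute log2 fold change over 0.5), both lower, against 6.27% of all tested genes in either direction and 2.55% lower. For cold on HFD 3 members passed, 2 lower and 1 higher (the last a row with few counts, described below), against 9.58% in either direction, 4.19% lower and 5.39% higher. The members' shares were 8% and 12%. The median log2 difference in the cold was -0.16 on NCD (-0.01 over all genes tested) and -0.20 on HFD (-0.04 over all). All the calls were of rows classed by name as snoRNA hosts, of which Snhg20 holds a scaRNA and a microRNA gene. None of the 6 microRNA hosts passed. At an unadjusted p under 0.05 in edgeR's test were 3 on NCD and 2 on HFD, against 21.9% and 27.5% of all genes. The median log2 difference of the microRNA hosts was -0.35 on NCD and -0.47 on HFD, against -0.14 and -0.09 for the 17 snoRNA host rows. A difference between the classes was not tested. DESeq2 called Mir99ahg on both diets. With replicate numbers paired within diet, 5 members passed for cold on HFD, the 3 above with Mir99ahg and Mir133a-1hg added. The share of all genes that passed in the paired fit is not given here, and 9.58% belongs to the fit without pairing. The groups of 22 °C and 4 °C did not overlap for 5 members on NCD and 7 on HFD, against 27.8% and 30.3% of all tested genes.

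Snhg20, whose locus on chr11:117076008-117078955 (plus strand) holds the scaRNA gene printed above, passed on HFD. Its libraries on HFD had 37.2, 25.7 and 33.5 CPM at 22 °C and 15.7, 20.9 and 19.3 at 4 °C. All cold values lay below all warm ones, and Snhg20 fell by 0.79 log2 units (SE 0.20, adjusted p = 0.0277, edgeR's quasi-likelihood F-test, Benjamini-Hochberg adjusted). Without HFD 22 °C replicate 1 or 3, or HFD 4 °C replicate 1 or 3, the adjusted p lay between 0.0704 and 0.113. Snhg20 also missed it in batch 1 alone (0.123), with only the 6 HFD libraries (0.0536) and without the 3 libraries richest in muscle markers (0.0733). On NCD its values overlapped, 25.1, 23.1 and 35.2 CPM at 22 °C and 27.3, 19.5 and 24.5 at 4 °C. The log2 difference there was -0.23 (95% interval -0.67 to 0.21). Whether the diets differed was tested by the interaction, -0.56 (SE 0.28, adjusted p = 0.793 from the same test), so a difference between the diets was not shown.

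Snhg14 is the long host of the Prader-Willi and Angelman region on chromosome 7 (59307924 to 59975759, minus strand), whose many C/D snoRNAs are best known from neurons. The authors' table split it into 7 rows, each with its own identifier, and the positions of the single rows within the locus were not given in the sources used here. The rows behaved differently. The best counted row, QNCMUSG00049930, had between 3.65 and 7.35 CPM in the 12 libraries and passed in no contrast.

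The row QNCMUSG00049924 of Snhg14 had 2.12, 2.32 and 2.28 CPM on NCD at 22 °C and 0.688, 0.412 and 0.947 at 4 °C. On HFD it had 1.80, 0.523 and 1.47 CPM at 22 °C and 0.900, 0.616 and 0.956 at 4 °C. NCD at 22 °C stood above every other library. Snhg14 (QNCMUSG00049924) fell by 1.67 on NCD (SE 0.43, adjusted p = 0.0387, edgeR's quasi-likelihood F-test, Benjamini-Hochberg adjusted). The same threshold was missed with 5 of the 12 libraries left out singly (each NCD 22 °C library, and NCD 4 °C replicates 1 and 2), with adjusted p up to 0.126. It was also missed in batch 1 alone (adjusted p = 0.129) and without the 3 libraries richest in muscle markers (0.25), from edgeR as before. On HFD the difference was -0.61 (95% interval -1.54 to 0.33), and the interaction was 1.06 (SE 0.60, adjusted p = 0.81 from the same test). Another row, Snhg14 (QNCMUSG00049926), had a like profile, with 8, 26 and 68 counts on NCD at 22 °C and between 0 and 8 counts in the other 9 libraries, but fell outside the filter for the main test. Without a filter on counts, its log2 difference for cold on NCD was -2.87 (adjusted p = 0.019) and for HFD at 22 °C -2.66 (adjusted p = 0.0454), both from edgeR's quasi-likelihood F-test, Benjamini-Hochberg adjusted. The row QNCMUSG00049926 was added because it was seen to be high on NCD at 22 °C. Its p-values thus add no support to the fall of QNCMUSG00049924 or to any count of members. On NCD at 22 °C, the 7 rows together had 8.53, 11.9 and 12.2 CPM. Their sums were lower without overlap on NCD at 4 °C (5.56, 5.94 and 7.86 CPM) and on HFD at 22 °C (7.01, 6.69 and 8.0 CPM). On HFD at 4 °C the sums were 5.58, 9.29 and 7.34 CPM, and replicate 2 there lay above the lowest NCD 22 °C library. The sums were not tested.

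The row QNCMUSG00049914 of Snhg14 went the other way. It had 19, 34 and 23 counts (0.855, 1.5 and 0.536 CPM) on HFD at 4 °C, and 3, 4 and 6 counts on HFD at 22 °C. On NCD it had 1, 3 and 25 counts at 22 °C and 3, 1 and 5 at 4 °C. HFD at 4 °C was thus highest, apart from NCD 22 °C replicate 3 with 0.612 CPM. Snhg14 (QNCMUSG00049914) rose by 2.31 in the cold on HFD (SE 0.68, adjusted p = 0.0494) and was higher on HFD at 4 °C by 2.97 (SE 0.71, adjusted p = 0.0389) in edgeR's quasi-likelihood F-test, Benjamini-Hochberg adjusted. Both calls rest on few reads and on the same HFD 4 °C libraries. The row reached the cutoff of the count filter (0.514 CPM) in those 3 and in NCD 22 °C replicate 3 alone. It was thus tested through the group where it is high, and its calls add no support to any count of members, above or below. Without a filter both calls stood (adjusted p = 0.0486 and 0.0246, edgeR). The cold call of Snhg14 (QNCMUSG00049914) was lost with batch as a term (0.0535), with the replicate block over all groups (0.0673) and with only the 6 libraries compared (0.0501), and was kept with the replicate block within diet (0.0423). With single libraries left out, the first was kept in 2 of 12 fits (without NCD 22 °C replicate 1 or 3) and the second in 3 of 12 (the same, or HFD 22 °C replicate 3), with log2 differences of 1.84 to 2.62 and 2.51 to 3.28. Its interaction, 3.72 (SE 1.01, adjusted p = 0.525), did not pass. The neighbouring Ube3a, a ubiquitin ligase gene on the opposite strand that overlaps the far end of Snhg14, had 167 to 229 CPM in all libraries.

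**Figure D3:**
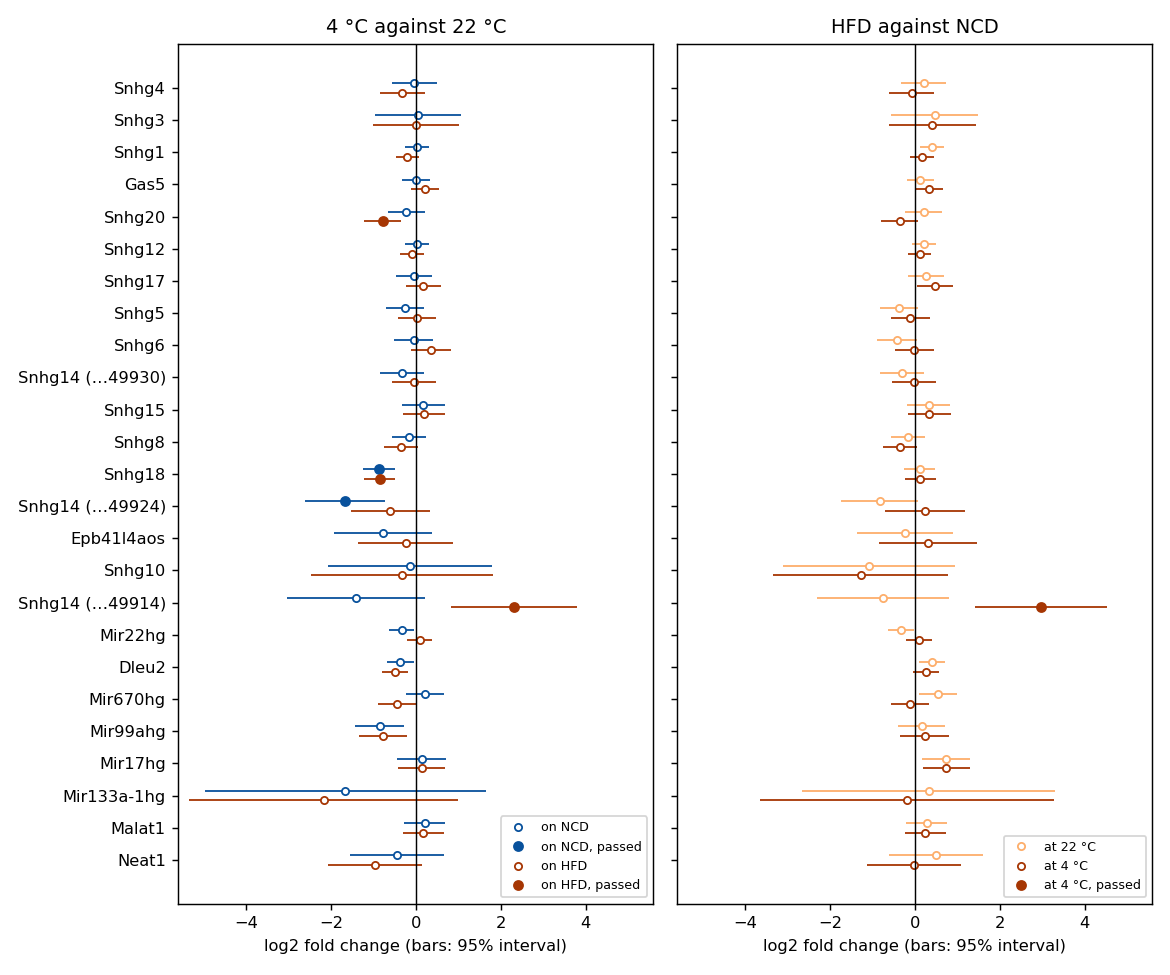
log2 fold changes with 95% intervals for the 25 tested rows, cold against 22 °C on the left and HFD against NCD on the right, with filled points for those that passed. Snhg18 passes on both diets with nearly the same value, and the widest intervals are those of Mir133a-1hg and of the rows with few counts.

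The well known hosts of several snoRNAs passed in no contrast. Gas5, with 10 annotated snoRNAs, is a 5′ TOP transcript whose level is tied to translation through nonsense-mediated decay. It had 27.5, 21.9 and 26.4 CPM on NCD at 22 °C and 24.3, 27.2 and 24.8 at 4 °C. On HFD it had 26.0, 29.4 and 27.5 CPM at 22 °C and 40.0, 27.8 and 28.1 at 4 °C. HFD 4 °C replicate 1 was the highest, and HFD and NCD did not overlap at 4 °C. The cold difference of Gas5 was 0.01 on NCD (95% interval -0.32 to 0.34) and 0.21 on HFD (interval -0.12 to 0.54), and the diet difference was 0.13 at 22 °C (interval -0.20 to 0.46) and 0.33 at 4 °C (interval 0.01 to 0.66, adjusted p = 0.214 in edgeR's quasi-likelihood F-test, Benjamini-Hochberg adjusted).

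Snhg12, which carries 5 annotated snoRNA genes, varied little. All its libraries lay between 9.52 and 13.3 CPM. Its log2 differences were 0.02 and -0.09 in the cold on NCD and HFD, and 0.21 and 0.11 for diet at 22 °C and 4 °C. The 4 intervals together ran from -0.37 to 0.49. Epb41l4aos, with a single snoRNA, had 10 to 56 counts per library. Its differences (-0.78 and -0.24 in the cold on NCD and HFD, -0.23 and 0.31 for diet at 22 °C and 4 °C) had intervals reaching from -1.94 to 1.47, so differences of this size were not detectable at this depth. Snhg5, Snhg6, Snhg8, Snhg10, Snhg15 and Snhg17 also passed in no contrast.

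Snhg3 and Snhg4 are the most abundant snoRNA hosts, and their largest difference was between batches. Snhg3 had 147, 124 and 62.7 CPM on NCD at 22 °C and 134, 144 and 67.2 at 4 °C. On HFD it had 188, 197 and 74.4 CPM at 22 °C and 181, 202 and 76.5 at 4 °C. Replicate 3 of each group, the library of batch 2, was thus the lowest every time. Snhg4 ranged from 159 to 206 CPM in batch 1 and from 95.9 to 141 in batch 2. The batch term of the fit, added after seeing the data, was -1.21 for Snhg3 (SE 0.08, adjusted p = 7.56e-05) and -0.57 for Snhg4 (SE 0.07, adjusted p = 0.00435) in edgeR's quasi-likelihood F-test, Benjamini-Hochberg adjusted. These were the only 2 of 25 members that passed between batches, against 2.03% of all genes tested. Both host long H/ACA snoRNAs, of 205 nt in Snhg3 and up to 196 nt in Snhg4. Snhg20 and Snhg10, which hold scaRNAs of 193 and 275 nt with an ACA box, had batch terms of 0.20 (SE 0.14) and 0.07 (SE 0.71). The part of small RNA length in the batch difference was not tested.

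Diet values of Snhg3 became more precise with batch in the fit. In the fit without batch, its HFD difference was 0.46 at 22 °C (SE 0.47) and 0.41 at 4 °C (SE 0.47). With batch as a term these became 0.42 (SE 0.11, adjusted p = 0.0641) and 0.37 (SE 0.11, adjusted p = 0.0647), and the test across the 4 groups passed (adjusted p = 0.0173), all in edgeR's quasi-likelihood F-test, Benjamini-Hochberg adjusted. Within batch 1 the HFD difference was 0.51 at 22 °C and 0.46 at 4 °C, and within batch 2, with 1 library a group, 0.25 and 0.19. Snhg3 overlaps the coding gene Rcc1 on the same strand, so their reads could be divided differently by the quantification. Rcc1 had between 5.10 and 9.60 CPM.

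**Figure D4:**
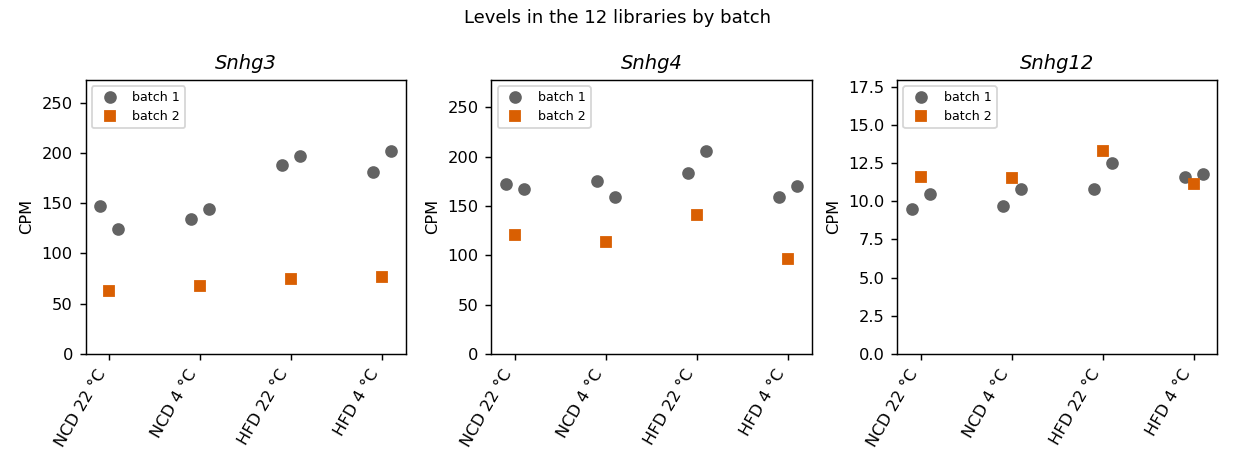
CPM of Snhg3, Snhg4 and, for comparison, Snhg12 by group, with circles for the 8 libraries of batch 1 and squares for the 4 of batch 2. The squares of Snhg3 (62.7 to 76.5 CPM) and Snhg4 (95.9 to 141 CPM) lie below every circle, and those of Snhg12 do not.

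Among the microRNA hosts, Mir99ahg and Dleu2 had the lowest p-values in the cold. Mir99ahg, the long host of miR-99a, let-7c and miR-125b (chr16:77236317-77773427, plus strand), had 6.91, 8.54 and 9.01 CPM on NCD at 22 °C and 4.59, 3.59 and 5.28 at 4 °C. On HFD it had 7.86, 12.5 and 6.97 CPM at 22 °C and 5, 6.74 and 4.15 at 4 °C. Warm and cold libraries did not overlap on either diet. The log2 differences were -0.86 on NCD (SE 0.26, adjusted p = 0.0707) and -0.79 on HFD (SE 0.26, adjusted p = 0.0726), short of the threshold in edgeR's quasi-likelihood F-test, Benjamini-Hochberg adjusted. With replicate numbers paired within diet, Mir99ahg passed on both (-0.86, adjusted p = 0.0175 and -0.77, adjusted p = 0.017). Without pairing, it passed on both diets in DESeq2 (adjusted p = 0.025 and 0.0371), and on NCD in edgeR with only the 6 libraries compared (0.0461). With single libraries left out, Mir99ahg passed on NCD in 1 of 12 fits (without HFD 22 °C replicate 2) and on HFD in 1 of 12 (without HFD 4 °C replicate 2). It also passed the test across the 4 groups (adjusted p = 0.032).

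Dleu2, the host of miR-15a and miR-16 (chr14:61602839-61682373, minus strand), had 17.7, 19.5 and 18.8 CPM on NCD at 22 °C and 14.8, 13.9 and 14.8 at 4 °C. On HFD it had 21, 22.5 and 30.4 CPM at 22 °C and 16, 19.4 and 17.0 at 4 °C. The groups did not overlap in any of the 4 contrasts, with HFD at 22 °C highest and NCD at 4 °C lowest. The cold difference was -0.37 on NCD (SE 0.14, adjusted p = 0.152) and -0.50 on HFD (SE 0.14, adjusted p = 0.0427) in edgeR's quasi-likelihood F-test, Benjamini-Hochberg adjusted. The second passed the adjusted p but, at -0.499, not the minimum of 0.5; it met both without HFD 22 °C replicate 1 or HFD 4 °C replicate 2. The diet difference was 0.40 at 22 °C (95% interval 0.09 to 0.71) and 0.27 at 4 °C (interval -0.04 to 0.58). Across the 4 groups Dleu2 passed (adjusted p = 0.0126 from the same test). Dleu2 overlaps the coding gene Trim13 on the opposite strand, and whether strand was used in the quantification was not given in the sources used here; Trim13 itself had between 2.57 and 4.88 CPM.

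Across the 4 groups, 5 of 25 members passed at an adjusted p under 0.05, against 24.3% of all genes tested. They were Snhg18 (adjusted p = 0.00281), Dleu2, Snhg14 (QNCMUSG00049914) (adjusted p = 0.0244), Mir99ahg and Snhg14 (QNCMUSG00049924) (adjusted p = 0.0366), all in edgeR's quasi-likelihood F-test, Benjamini-Hochberg adjusted. The Snhg14 rows belong to the same gene. QNCMUSG00049914 was tested through the group where it is high, so it adds no support to this count.

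Mir17hg, the host of the miR-17 to miR-92a cluster that is widely studied in cell growth, had the largest differences by diet among the 6 microRNA hosts. It had 1.49, 1.80 and 2.25 CPM on NCD at 22 °C and 2.64, 3.24 and 3.47 on HFD. At 4 °C it had 2.12, 1.71 and 2.30 CPM on NCD and 4.46, 3.30 and 2.59 on HFD. HFD libraries were above NCD libraries at each temperature. The log2 difference was 0.74 at 22 °C (95% interval 0.18 to 1.31, adjusted p = 0.161) and 0.74 at 4 °C (interval 0.18 to 1.30, adjusted p = 0.113), which edgeR's quasi-likelihood F-test, Benjamini-Hochberg adjusted did not call. The 14 proliferation markers summed to between 61.3 and 85.3 CPM on HFD at 22 °C and between 61.7 and 76.6 on NCD. Their sum at 4 °C was 75.4, 93.5 and 201 CPM in HFD replicates 1 to 3 and 62.1 to 67.1 on NCD. Of the 14, 0 passed for diet at 22 °C and 2 at 4 °C, both higher on HFD, against 2.06% of all genes. At 4 °C, 12 had an unadjusted p under 0.05 in edgeR's test, against 22.7% of all genes. The summed endothelial markers (11 genes) were higher on HFD without overlap at both temperatures, at 1140 to 1410 against 835 to 969 CPM at 22 °C and 1410 to 1660 against 1090 to 1250 CPM at 4 °C, with 1 gene higher at 22 °C and 0 at 4 °C passing. The part of either cell population in the Mir17hg values was not tested.

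Mir22hg, the most abundant microRNA host per kilobase, had 33.6, 37.3 and 41.5 CPM on NCD at 22 °C and 28.1, 28.8 and 32.0 at 4 °C. On HFD it had 34.3, 27.7 and 27.9 CPM at 22 °C and 27.2, 36.6 and 31.5 at 4 °C. NCD warm and cold libraries did not overlap, with a log2 difference of -0.34 (95% interval -0.64 to -0.04, adjusted p = 0.167, edgeR's quasi-likelihood F-test, Benjamini-Hochberg adjusted). On HFD the cold difference was 0.09 (interval -0.21 to 0.39). Mir22hg shares its strand and most of its locus with the coding gene Tlcd2. Tlcd2 fell on HFD, by 1.53 at 22 °C (adjusted p = 0.0398) and by 1.97 at 4 °C (adjusted p = 0.00919 from the same test), where Mir22hg differed by -0.33 (interval -0.63 to -0.03) and 0.10 (interval -0.20 to 0.40). Mir670hg, host of miR-670 and miR-129, had 9.88 to 20.2 CPM and passed in no contrast.

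For HFD at 22 °C, 0 of 25 members passed edgeR's quasi-likelihood test, against 2.09% of all tested genes (0.992% higher and 1.09% lower). There were 5 members (20%) at an unadjusted p under 0.05, against 18.1% of all genes, and the smallest adjusted p was 0.137, for Snhg1 (log2 difference 0.39, 95% interval 0.11 to 0.68). DESeq2 called 1 row, Snhg14 (QNCMUSG00049926), which fell outside the filter of the main test and adds no support to this count. For HFD at 4 °C, 1 member passed, the Snhg14 row described above, which was higher, against 4.75% in either direction, 2.06% higher and 2.69% lower. The groups did not overlap for 6 members at 22 °C and 5 at 4 °C, against 25.9% and 25.2% of all genes. The median difference of the members was 0.20 at 22 °C (0.03 over all genes tested) and 0.13 at 4 °C (0.02 over all). The interaction of diet and temperature was called by edgeR's quasi-likelihood test for 0 members, and for 0% of all genes; DESeq2 called 0 members too, and 3 members (12%) had an unadjusted p under 0.05, against 6.52% of all genes.

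Malat1 and Neat1 took 0.272% or more and 0.0584% or more of the counts of each library. Malat1 had 3040, 3730 and 4040 CPM on NCD at 22 °C and 3430, 4240 and 4790 at 4 °C. On HFD it had 3590, 3460 and 6030 CPM at 22 °C and 5540, 4430 and 4780 at 4 °C. The groups overlapped in every contrast, and the 4 log2 differences were between 0.17 and 0.27, with 95% intervals from -0.31 to 0.76.

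Neat1 was the more variable of the pair. It had 652, 1840 and 1300 CPM on NCD at 22 °C and 1160, 823 and 795 at 4 °C. On HFD it had 1040, 778 and 3520 CPM at 22 °C and 1010, 893 and 837 at 4 °C. The 2 highest values were in the 2 libraries with most muscle markers, HFD 22 °C replicate 3 (66100 CPM of summed markers) and NCD 22 °C replicate 2 (38600 CPM). NCD 4 °C replicate 2, next in muscle markers (22600 CPM), was not high in Neat1. The cold difference of Neat1 was -0.45 on NCD (95% interval -1.55 to 0.66) and -0.96 on HFD (interval -2.07 to 0.15). Without the 3 libraries richest in muscle markers, a choice made after seeing the data, it was 0.004 and 0.005. These 3 include the 2 libraries highest in Neat1, both at 22 °C, so their removal had to shrink the difference, and the part of muscle in the Neat1 values was not tested.

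Mir133a-1hg, the host of the muscle microRNAs miR-1 and miR-133a on chromosome 18, followed the same libraries. It had 3.43 CPM (59 counts) in NCD 22 °C replicate 2, 1.06 CPM (18 counts) in NCD 4 °C replicate 2, 4.29 CPM (152 counts) in HFD 22 °C replicate 3 and 0.886 CPM (38 counts) in HFD 4 °C replicate 3. These 4 libraries were also those with the highest muscle marker sums. The other 8 libraries had between 0 and 0.514 CPM. Its cold differences, -1.66 on NCD (95% interval -4.98 to 1.66) and -2.17 on HFD (interval -5.34 to 1.00), did not pass. With replicate numbers paired within diet, the HFD value was -2.28 and passed (adjusted p = 0.0278, edgeR's quasi-likelihood F-test, Benjamini-Hochberg adjusted). The muscle marker sums were lower at 4 °C in the same pairs (5000, 4530 and 66100 CPM at 22 °C, 1420, 1800 and 11800 at 4 °C), and their part in this result was not tested.

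**Figure D5:**
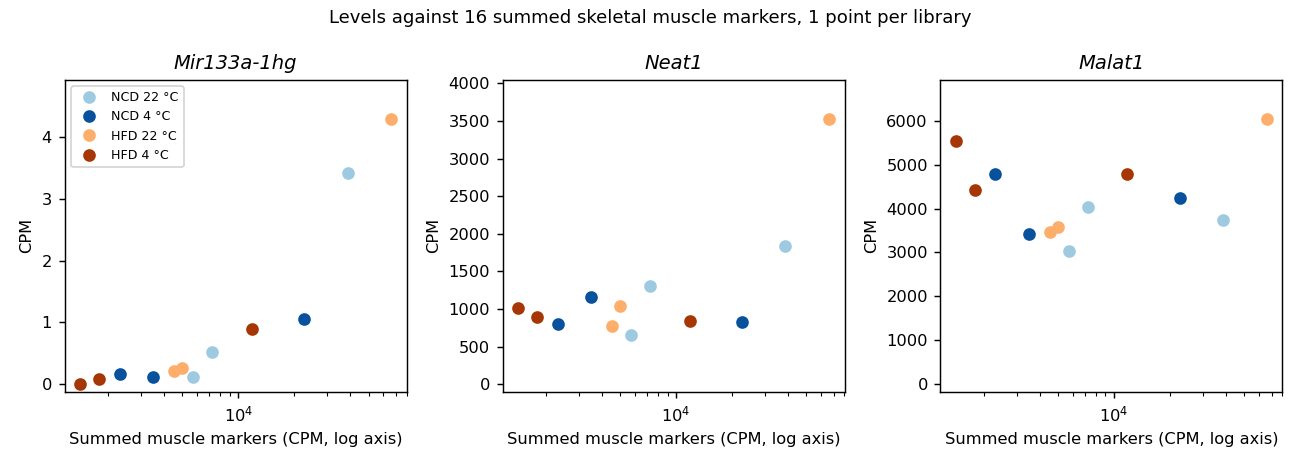
CPM of Mir133a-1hg, Neat1 and Malat1 against the summed CPM of 16 skeletal muscle markers on a log axis, 1 point per library coloured by group. The 4 highest Mir133a-1hg values (0.886 to 4.29 CPM) are in the 4 libraries richest in muscle markers, and Neat1 is highest in the top 2.

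Genes for the proteins that work with these RNAs were counted as lists. An unadjusted p under 0.05 was held by 21.9% and 27.5% of all tested genes for the cold response on NCD and HFD, and by 18.1% and 22.7% for diet at 22 °C and 4 °C, the background for the counts at that level below. In the same order, 6.27%, 9.58%, 2.09% and 4.75% of all tested genes passed, the background for the numbers of genes that passed in each list. Of 11 box C/D snoRNP genes, 1 rose in the cold on HFD, Nolc1, a nucleolar chaperone of snoRNPs (0.61, adjusted p = 0.0366), and 0 passed in the other contrasts, where 2 (cold on NCD), 0 and 3 (HFD at 22 °C and 4 °C) had an unadjusted p under 0.05. Of 6 box H/ACA snoRNP genes, 0 passed in any contrast, with 0 to 2 at an unadjusted p under 0.05. Among them Dkc1, the pseudouridine synthase, was at -0.13 and -0.26 in the cold on NCD and HFD. The list's medians there were -0.001 and 0.26, against -0.01 and -0.04 over all genes tested. Of 42 coding snoRNA hosts, 0 passed, with 5 (cold on NCD), 14 (cold on HFD), 1 and 8 (HFD at 22 °C and 4 °C) at an unadjusted p under 0.05. Hspa8 and Hspa9, chaperone genes, were the most abundant of them (0.43 and 0.39 in the cold on NCD). The median of the 42 in the cold was 0.02 on NCD and 0.17 on HFD.

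Of 20 ribosome biogenesis genes, Nop2, a ribosomal RNA methyltransferase, rose in the cold on both diets (0.56, adjusted p = 0.012 and 0.73, adjusted p = 0.00226). Npm1, a nucleolar chaperone (0.82, adjusted p = 0.00919), and Rrn3, an initiation factor of RNA polymerase I (0.51, adjusted p = 0.00508), rose on HFD. In the cold, 1 of the 20 thus passed on NCD and 3 on HFD, with 8 and 10 at an unadjusted p under 0.05. The median of that list in the cold was 0.19 on NCD and 0.34 on HFD (-0.01 and -0.04 over all genes). All adjusted p-values of the lists are from edgeR's quasi-likelihood F-test, Benjamini-Hochberg adjusted.

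A list of 20 genes was taken for the 5′ TOP transcripts, the class of Gas5. Of these Pabpc1, the poly(A) binding protein, fell in the cold on NCD (by 0.67). Npm1, the same gene as in the list above, rose on HFD. Of 17 nonsense-mediated decay factors 0 passed in the 4 contrasts, with 1 to 5 at an unadjusted p under 0.05. Smg1, a kinase of that pathway, was at -0.12 and -0.33 in the cold on NCD and HFD, where the list's medians were 0.11 and 0.13. Of 17 tested microRNA processing genes, Ran, which drives nuclear export, rose (0.73) and Tnrc6b, a silencing cofactor, fell (by 0.54) in the cold on HFD. Of 13 paraspeckle protein genes and 16 nuclear speckle genes 0 passed, with 0 to 3 and 1 to 4 at an unadjusted p under 0.05. Hnrnpk was at 0.21 and 0.46 and Son at 0.20 and -0.07 in the cold on NCD and HFD. The medians there were 0.04 and 0.10 for the paraspeckle list and 0.12 and 0.09 for the speckle list. For diet, edgeR called 0 genes of these lists at either temperature. DESeq2 called 0 genes in either cold contrast for the H/ACA, decay, paraspeckle and speckle lists and 1 coding host (Rpl13a) in the cold on HFD. For diet at 4 °C it called Npm1 and Myc, a transcription factor, and for diet at 22 °C 0 genes.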

How the data were processed

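Libraries were made with the Illumina TruSeq kit from rRNA-depleted total RNA and sequenced as read pairs. The authors trimmed the reads with cutadapt and quantified them with salmon against GENCODE M22 joined with RNAcentral (GRCm38). The deposited values are salmon's estimated counts, summed to genes, given as whole numbers, and neither normalized nor pooled. Strand use was not given in the sources used here, so overlapping genes are uncertain. Libraries held 15136861 to 46740702 counts; a count of 0 allows up to 3, counting error only.

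Groups and batches came from the labels. Rows kept by filterByExpr (minimum count 10; 16737) were normalized with TMM and fitted as 4 group means in edgeR 4.0.16 (R 4.3.3), with p adjusted over all of them. A pass needed an adjusted p under 0.05 and, for the 4 contrasts, an absolute log2 fold change over 0.5. Replicates with the same number deviated together between 22 °C and 4 °C (correlations 0.219 to 0.456 on NCD, 0.155 to 0.386 on HFD). The main fit did not use the numbers, and pairing by them was an alternative for the cold contrasts. The labels give no pairing, and the part of batch and muscle in these correlations was not tested. Between the diets, the correlations ran from -0.18 to 0.365 at 22 °C and from -0.211 to 0.196 at 4 °C. The steps were tested on simulated data.

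Described in full were members that passed, and Gas5, Snhg1, Snhg12, Epb41l4aos, Neat1, Malat1, Mir22hg and Dleu2. Snhg3, Snhg4, Mir17hg, Mir133a-1hg and the Snhg14 row QNCMUSG00049926 were added after their values were seen, as were the overlapping genes Tlcd2, Rcc1, Trim13 and Ube3a, and Myc and Rpl13a. Coding neighbours were those that start within 1000 bases on the other strand. From each list, genes that passed were named, or else abundant ones. Members and lists were chosen with earlier results of these data known. Alternatives were DESeq2 1.42.0, its size factors, other filters, batch as a term, batch 1 alone, replicate blocks, only the 6 libraries compared, the fold minimum dropped, members typed lncRNA alone and each library left out. Positions came from GENCODE M21.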

Additional observations from a re-analysis of the deposited data

How the results depend on the processing

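The directions of the 6 passing differences were kept under all alternatives that gave a value. The counts below are of members alone, without the share of all genes that passed under the same setting. They do not show whether the members responded more or less than other genes. DESeq2 called 4 members for cold on NCD, 1 for HFD at 22 °C, 0 for HFD at 4 °C (where Snhg14 (QNCMUSG00049914) got no adjusted p) and 8 across the 4 groups. Without a filter on counts 1 member passed for HFD at 22 °C. Batch 1 alone, with 2 libraries a group, gave 0 members for each cold contrast and for HFD at 4 °C, and 1 across the 4 groups. The replicate block over all groups gave 0 for HFD at 4 °C and ended the cold call of Snhg14 (QNCMUSG00049914) on HFD, and the replicate block within diet gave 5 for cold on HFD; these blocks moved no other count by over 1.5 times. With only the 6 libraries compared, 0 passed in the cold on HFD and 0 for diet at 4 °C. Without the 3 libraries richest in muscle markers (chosen after seeing the data), 0 passed for cold on NCD, 1 for cold on HFD (Snhg18), 0 for HFD at 4 °C and 1 across the 4 groups. With the type lncRNA only, which leaves 4 tested members, 0 passed for both cold contrasts, for HFD at 4 °C and across the 4 groups. The cause of these shifts was not tested, beyond the smaller numbers of libraries or members. With single libraries left out, counts ran from 0 to 4 for cold on NCD (0 without NCD 22 °C replicate 3, 1 without NCD 22 °C replicate 2 or NCD 4 °C replicate 1 or 2, 4 without HFD 22 °C replicate 2), from 1 to 4 for cold on HFD (1 without HFD 22 °C replicate 3 or HFD 4 °C replicate 1 or 3) and from 0 to 1 for HFD at 22 °C (1 without HFD 4 °C replicate 1). They ran from 0 to 1 for HFD at 4 °C (1 without NCD 22 °C replicate 1 or 3 or HFD 22 °C replicate 3), from 0 to 0 for the interaction and from 3 to 7 across the 4 groups (3 without NCD 22 °C replicate 2 or 3, NCD 4 °C replicate 2 or HFD 4 °C replicate 1). Snhg18 passed in 11 of 12 such fits on NCD (adjusted p = 0.0528 without NCD 22 °C replicate 3) and in 12 of 12 on HFD, in edgeR's quasi-likelihood test. Rows with few counts, such as those of Snhg14, Snhg10 and Epb41l4aos, allow only large differences to be seen.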

Other observations

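Snhg11, typed as protein coding in the table and so outside the rule, had 7.03, 6.04 and 5.95 CPM on NCD at 22 °C and 2.24, 1.24 and 2.44 at 4 °C. On HFD it had 3.67, 2.04 and 4.26 CPM at 22 °C and 2.21, 0.969 and 1.93 at 4 °C. The NCD libraries at 22 °C stood above all others. Snhg11 fell by 1.67 in the cold on NCD (SE 0.36, adjusted p = 0.0185, edgeR's quasi-likelihood F-test, Benjamini-Hochberg adjusted). The call was lost without any single NCD 22 °C library or NCD 4 °C replicate 2 (adjusted p from 0.0506 to 0.0693), and in batch 1 alone (-1.91, adjusted p = 0.0893, edgeR). On HFD the difference was -0.96 (SE 0.36, adjusted p = 0.107), and it passed with replicate numbers paired within diet (-0.98, adjusted p = 0.0311). Without the 3 libraries richest in muscle markers, the NCD difference was -1.47 (adjusted p = 0.128 from the same test). Snhg11 was added after its values were seen.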
